A study of Mus musculus with 8 samples.

Results

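The genes described are 57 genes that act in G2 and mitosis, read in purified supporting cells and in whole gonads of mouse fetuses at embryonic day 13. The list holds cyclins and kinases of mitotic entry, spindle checkpoint and anaphase genes, kinetochore and centromere proteins, spindle motors, condensin subunits and cytokinesis genes. It was chosen by gene name from what these proteins do, but with earlier results of these data known. The array annotation matched 56 of the 57 to at least 1 probe set, out of 18193 genes measured, with 132 probe sets that name 1 gene only. Ccnb1 was matched to none and was not analysed here.

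There were 4 groups of 2 arrays, all of strain C57BL6/J-Tg92: sorted XY Sertoli cells, sorted XX pre-granulosa cells, whole XY testes and whole XX ovaries. Sertoli and pre-granulosa cells are the somatic supporting cells that surround germ cells in the fetal testis and ovary. They were collected as EGFP-positive cells, about 22000 per XY sample and about 30000 per XX sample, and each gonad sample pooled 4 gonads. All groups carried the Tg92 transgene; the promoter that drives it is not given in the sources used here. The arrays were Affymetrix Mouse Genome 430v2.0, hybridised with amplified cDNA from about 20 ng of RNA, and values are on the log2 scale, so a difference of 1 is a change by a factor of 2. Nothing in the labels says whether separate animals or sorts gave the 2 samples of each group, so p-values measure the spread between these samples, which may be technical, and the number of arrays limits the precision.

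A cell that divides makes most of its mitotic machinery anew in G2 and destroys much of it when it leaves mitosis, so transcripts of these genes are abundant in dividing cells and scarce in cells that have stopped dividing. In the fetal testis Sertoli cells go on dividing after sex is determined, whereas pre-granulosa cells of the mouse fetal ovary are known to slow or stop division around this stage. Many of the genes share promoter elements, the CHR and the CCAAT box, that repress them in resting cells and switch them on in G2.

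The labelled cell types were checked against their markers. Of 10 Sertoli markers measured, 7 were called higher in Sertoli cells, and of 8 pre-granulosa markers 4 were called lower. Foxl2, a transcription factor of granulosa fate, read 5.19 and 5.43 in Sertoli cells, against 8.99 and 9.65 in pre-granulosa cells. Sox9, the transcription factor of Sertoli fate, read 11.53 and 11.95 in Sertoli cells, against 9.46 and 10.56 in pre-granulosa cells, and was not called (adjusted p = 0.0541). Of 10 germ cell markers, 7 lay at or below the background level on all 4 sorted arrays, and the summed linear level of the list was 279 to 320 in Sertoli cells and 212 to 248 in pre-granulosa cells, compared with 7442 to 8559 in testes and 8602 to 9219 in ovaries. The background level, 4.78, is the highest value of 9 probe sets of Y-linked genes on XX arrays. The sorted and the gonad arrays appear to have been normalized apart, so levels across them are described and not tested.

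Mitosis and G2 genes read higher in Sertoli cells than in pre-granulosa cells, and 26 of them passed the test. Of the 56 genes, 26 were called higher in Sertoli cells and 0 lower (limma over all 8 arrays, two-sided, adjusted p under 0.01 over all 45037 probe sets tested), where 1.62% of all genes were called higher and 1.05% lower. The difference, Sertoli minus pre-granulosa, was positive for 55 of 56 members, against 55% of all genes, and over 1 for 51 members, against 8.39% of all genes. Its median over the members was 2.62 on the log2 scale, a fold of 6.17, beside 0.04 for all genes. Both Sertoli arrays lay above both pre-granulosa arrays for 54 members, against 24.2% of all genes. The array means of the 56 genes were 8.80 and 9.11 in Sertoli cells, against 6.13 and 6.53 in pre-granulosa cells. In bulk samples such as these, fewer dividing cells and less RNA per dividing cell cannot be told apart.

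The 30 members that were not called had a median difference of 2.15, and 17 of them differed by over 2. The 2 pre-granulosa arrays stood over 1 apart for 19 of 56 members, against 15.9% of all genes, and in 15 of these 19 the second array was the higher. The count of calls depended on the arrays in the fit, and so did the count over all genes. Both fell with a Sertoli, testis or ovary array left out and rose with a pre-granulosa array left out. With the 4 sorted arrays alone, limma called 0 members and 0 of all 18193 genes. At an unadjusted p under 0.05 were 49 of 56 members, against 14.7% of all genes. The median difference of the members stayed between 2.40 and 2.72 whichever array was left out.

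**Figure D1:**
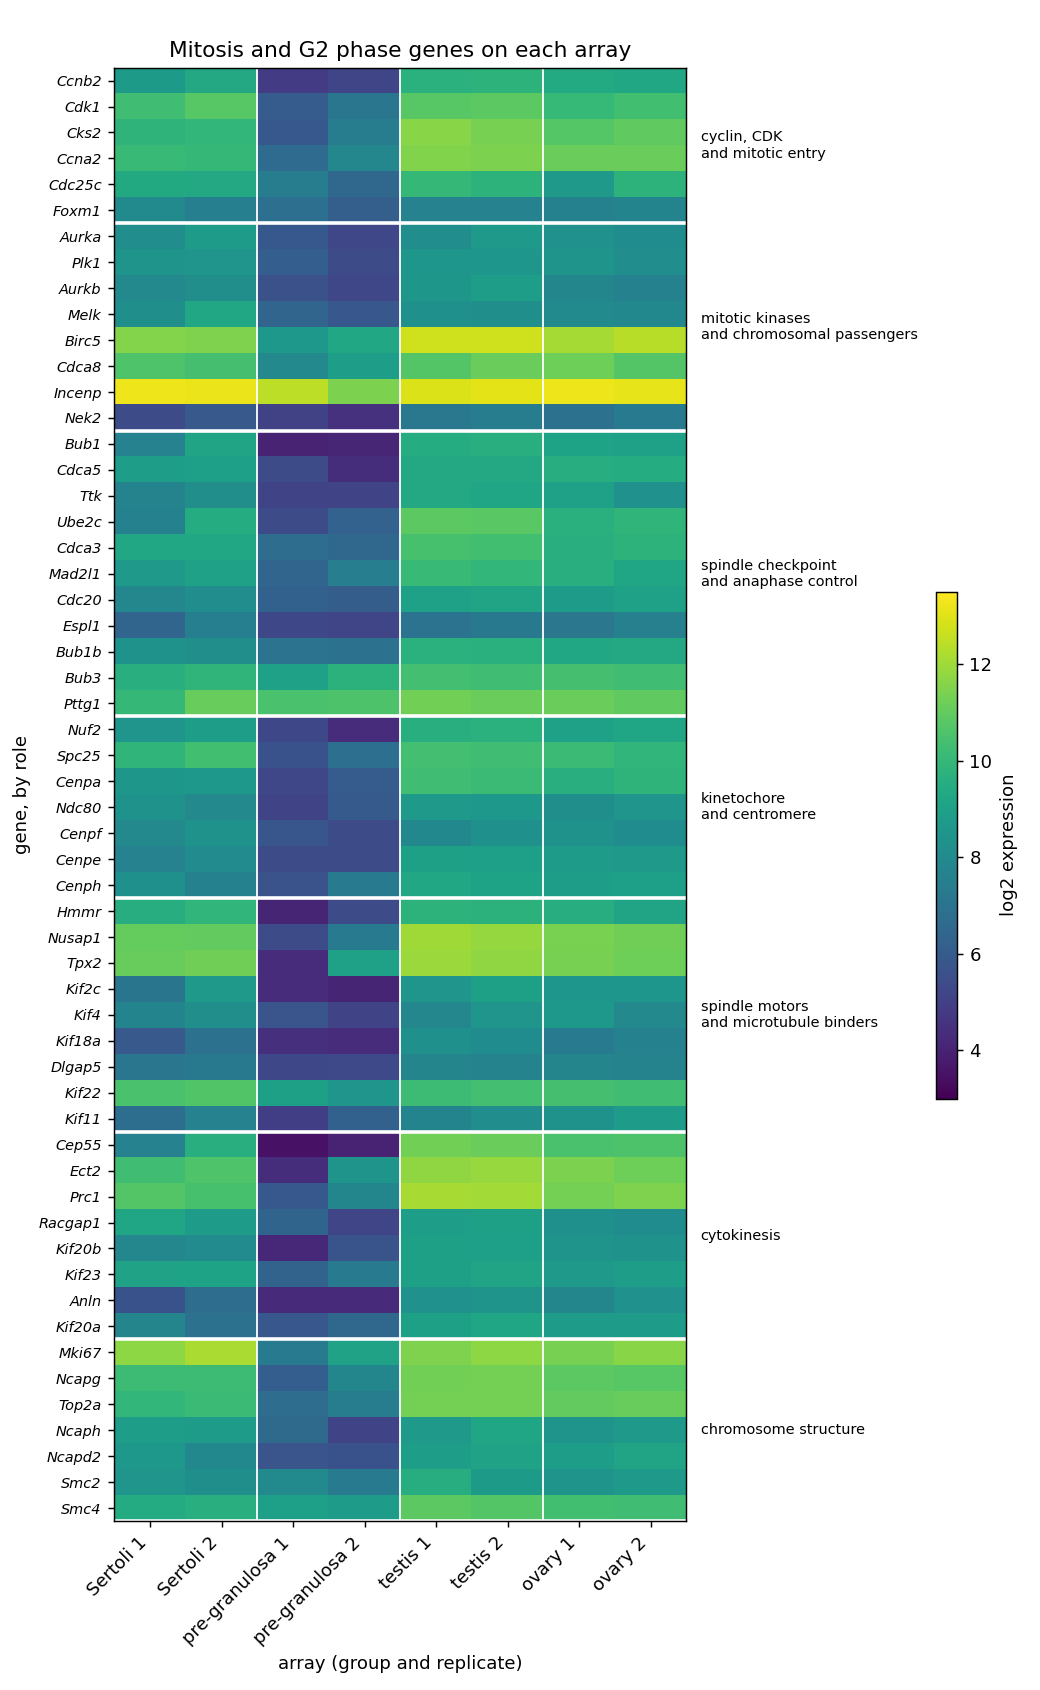
Log2 expression (colour) of the 56 measured members in rows, grouped by role and ordered by Sertoli minus pre-granulosa difference, on the 8 arrays in columns. The pre-granulosa columns are dark for nearly all rows, with array means of 6.13 and 6.53, next to 8.80 and 9.11 in Sertoli cells; Incenp, Pttg1, Bub3 and Smc4 change less across the columns.

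Other measures that moved with the comparison were as follows. The summed level of 10 macrophage markers was 1125 and 4009 in Sertoli cells, against 386 and 308 in pre-granulosa cells, and 1 of them, C1qb, was called higher. Endothelial markers summed to 1065 to 1291 in Sertoli cells, against 477 to 912 in pre-granulosa cells, with 1 of 10 called higher. The 4 Leydig markers measured summed to 1826 to 3115 in Sertoli cells, against 634 to 900 in pre-granulosa cells, with 0 called (limma; 4 at an unadjusted p under 0.05). Interstitial markers summed to 4121 to 4470 in Sertoli cells, against 1082 to 4536 in pre-granulosa cells, and erythroid markers to 1533 to 1624 in Sertoli cells, against 1545 to 3413 in pre-granulosa cells. Of 10 meiosis genes, 2 were called lower in Sertoli cells, and the list summed to 422 to 438 in Sertoli cells, against 1748 to 3014 in pre-granulosa cells, with 959 to 987 in testes and 2639 to 2735 in ovaries. They were Rec8, a meiotic cohesin subunit, which read 7.33 and 7.27 in Sertoli cells, against 11.29 and 10.42 in pre-granulosa cells, and Sycp3, a protein of the synaptonemal complex, which read 5.71 and 5.31 in Sertoli cells, against 8.18 and 7.47 in pre-granulosa cells. At background on all 4 sorted arrays were 4 of the 10 meiosis genes. Of 10 markers in each list, 4 macrophage and 2 endothelial ones lay at background on both pre-granulosa arrays, and 1 of each on both Sertoli arrays. Csf1r, a receptor that defines macrophages, read 6.54 and 10.86 in Sertoli cells, against 5.38 and 3.65 in pre-granulosa cells. Without Sertoli replicate 2, the array with the high macrophage sum, the median difference of the members was 2.56. The macrophage sum of the Sertoli array that was left, 1125, was still above both pre-granulosa sums. The excess of 3′ over 5′ signal of Gapdh, a sign of RNA quality, was 1.94 and 2.69 in Sertoli cells and 3.68 and 1.24 in pre-granulosa cells, so the pre-granulosa values lay on both sides of the Sertoli ones. Without pre-granulosa replicate 1, which had the highest excess, the median difference was 2.40. The part of other cell types and of RNA quality in the result was not tested.

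Promoter sequences show what many of the members share. RefSeq promoters (GRCm38.p6) were found for 48 of the 57 members, 52 start sites in all, and the 250 bases upstream of each were searched on both strands for the CHR (TTTGAA or TTTAAA), which repressor and activator complexes of the cell cycle bind, and for the CCAAT box (CCAAT), bound by NF-Y. A CHR was in 25 of 52 member promoters (48.1%) and in 19.8% of 18109 promoters of genes measured on the array. A CCAAT box was in 36 of 52 (69.2%), compared with 34.7%, and several were in 46.2%, compared with 11.4%. Both elements stood together in 40.4% of member promoters, compared with 7.14%. A CHR in the last 60 bases before the start site was in 28.8%, compared with 4.09%. In members called higher in Sertoli cells the shares were 48% for the CHR and 72% for the CCAAT box, and in members not called 46.2% and 65.4%. A match is a run of letters, not a measured site. The 120 bases before the start site are printed 5′ to 3′ for 7 called members, picked after the matches were seen so that each combination of the elements is shown, and for Pttg1, whose level did not follow the others; capitals mark CHR and CCAAT matches on either strand.
Ccnb2 (chr9:70421555-70421674, minus strand, GRCm38.p6): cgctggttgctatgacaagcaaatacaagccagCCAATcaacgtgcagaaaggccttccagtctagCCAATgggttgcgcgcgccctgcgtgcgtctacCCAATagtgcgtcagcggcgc
Cdk1 (chr10:69352913-69353032, minus strand, GRCm38.p6): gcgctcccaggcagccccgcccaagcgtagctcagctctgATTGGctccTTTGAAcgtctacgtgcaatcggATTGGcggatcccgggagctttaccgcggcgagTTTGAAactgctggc
Plk1 (chr7:122159315-122159434, plus strand, GRCm38.p6): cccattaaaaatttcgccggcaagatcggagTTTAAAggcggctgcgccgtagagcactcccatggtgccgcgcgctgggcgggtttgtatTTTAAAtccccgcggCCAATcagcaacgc
Cdca5 (chr19:6084977-6085096, plus strand, GRCm38.p6): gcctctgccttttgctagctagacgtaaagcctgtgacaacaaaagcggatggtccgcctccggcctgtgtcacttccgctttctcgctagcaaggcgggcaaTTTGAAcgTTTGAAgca
Nuf2 (chr1:169531465-169531584, minus strand, GRCm38.p6): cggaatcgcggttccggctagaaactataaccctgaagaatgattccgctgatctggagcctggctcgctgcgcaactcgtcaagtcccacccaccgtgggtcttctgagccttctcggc
Hmmr (chr11:40733438-40733557, minus strand, GRCm38.p6): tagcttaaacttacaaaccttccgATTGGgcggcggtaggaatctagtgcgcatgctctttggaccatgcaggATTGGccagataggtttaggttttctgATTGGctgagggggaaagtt
Top2a (chr11:99024190-99024309, minus strand, GRCm38.p6): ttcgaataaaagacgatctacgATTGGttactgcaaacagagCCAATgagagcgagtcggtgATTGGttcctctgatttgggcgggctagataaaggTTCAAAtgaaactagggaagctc
Pttg1 (chr11:43425982-43426101, minus strand, GRCm38.p6): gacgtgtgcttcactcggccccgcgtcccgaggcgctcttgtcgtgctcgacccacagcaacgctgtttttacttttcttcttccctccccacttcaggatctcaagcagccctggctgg
Ccnb2 and Hmmr hold 3 CCAAT boxes each and no CHR in this window, Cdca5 holds 2 CHR matches and no CCAAT box, and Cdk1, Plk1 and Top2a hold both. Nuf2 holds neither in the 120 bases, as does Pttg1, although Nuf2 was called and Pttg1 was not. The Pttg1 window precedes a start site inside the gene, which spans chr11:43420244-43427463. The sequence before the upstream end of that gene was not searched, so its elements are not known here.

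Differences below are Sertoli minus pre-granulosa on the log2 scale, given ± SE, with adjusted p-values from limma. Mitotic entry genes were led by Ccnb2, a B-type cyclin that activates Cdk1 at the G2 to M transition. Its promoter is the first of those above. Ccnb2 read 8.71 and 9.32 in Sertoli cells, against 4.89 and 5.21 in pre-granulosa cells, and 9.70 and 9.80 in testes, against 9.44 and 9.28 in ovaries. Both pre-granulosa arrays stood far below the other 6, and the difference was 3.97 ± 0.24 (15.6-fold, adjusted p = 0.00134). Cdk1, the kinase that drives mitosis, read 10.26 and 10.76 in Sertoli cells, against 6.07 and 7.13 in pre-granulosa cells, with 10.78 and 10.87 in testes, against 10.05 and 10.34 in ovaries; the difference was 3.91 ± 0.37 (adjusted p = 0.00426). Ccnb2 and Cdk1 were the 2 of 6 entry genes called, and the median of the 6 was 2.99. Ccna2, the A-type cyclin of S and G2, differed by 2.75 ± 0.36 (adjusted p = 0.0119) and Cks2, a small subunit of CDK complexes, by 3.23 ± 0.46 (adjusted p = 0.0152); neither was called, although the groups did not overlap. The smallest differences were those of Foxm1, a transcription factor that switches on G2 genes, and Cdc25c, the phosphatase that activates Cdk1. Foxm1 read 7.99 and 7.52 in Sertoli cells, against 6.85 and 6.17 in pre-granulosa cells, a difference of 1.25 ± 0.27 (adjusted p = 0.0547). Cdc25c read 9.37 and 9.35 in Sertoli cells, against 7.43 and 6.54 in pre-granulosa cells, a difference of 2.38 ± 0.43 (adjusted p = 0.0327), and its second probe set was called, at 2.47 ± 0.30.

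Mitotic kinases and the chromosomal passenger complex, which corrects wrong attachments of chromosomes to the spindle, had 4 of 8 genes called and a median of 2.60. Aurka, the kinase of spindle poles, read 8.13 and 8.75 in Sertoli cells, against 5.88 and 5.22 in pre-granulosa cells, a difference of 2.90 ± 0.32 (adjusted p = 0.00684). Plk1, a kinase of mitotic entry, centrosomes and cytokinesis, read 8.44 and 8.46 in Sertoli cells, against 6.15 and 5.41 in pre-granulosa cells, a difference of 2.67 ± 0.26 (adjusted p = 0.00461). Aurkb, the kinase of the passenger complex, read 7.92 and 8.18 in Sertoli cells, against 5.59 and 5.24 in pre-granulosa cells, a difference of 2.64 ± 0.20 (adjusted p = 0.00216). In each of these 3 kinases both Sertoli arrays were above both pre-granulosa arrays. Birc5, or survivin, was the fourth called, at 2.57 ± 0.26 (adjusted p = 0.00501). For some partners the probe sets disagreed. Incenp, the scaffold of the complex, read 13.23 and 13.21 in Sertoli cells, against 12.45 and 11.42 in pre-granulosa cells on its brightest probe set, 1.28 ± 0.32 apart and short of a call (adjusted p = 0.0849). A second Incenp probe set read 9.22 and 9.32 in Sertoli cells, against 6.59 and 6.69 in pre-granulosa cells (2.63 ± 0.17, adjusted p = 0.00151), a difference that was called, so which probe set stands for the gene decides its call. Cdca8, or borealin, was not called on its brightest probe set (2.08 ± 0.35, adjusted p = 0.026) but was on 2 others. Nek2, a kinase of centrosome separation, had the smallest difference of the role: it read 5.44 and 5.95 in Sertoli cells, against 5.03 and 4.50 in pre-granulosa cells, 0.93 ± 0.27 apart (adjusted p = 0.124).

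Of the spindle checkpoint and anaphase genes, 6 of 11 were called, with a median of 1.89. Bub1, a checkpoint kinase at kinetochores, read 7.64 and 9.11 in Sertoli cells, against 3.99 and 4.11 in pre-granulosa cells. Both pre-granulosa values were below background, so the change is a bound: at least 12.1-fold higher in Sertoli cells (adjusted p = 0.00527). Cdca5, or sororin, which protects the cohesion of sister chromatids, read 8.83 and 8.91 in Sertoli cells, against 5.45 and 4.37 in pre-granulosa cells, with 1 pre-granulosa array below background; the difference was 3.96 ± 0.33 (adjusted p = 0.00294). Ttk, the kinase that starts the checkpoint signal, read 7.68 and 8.18 in Sertoli cells, against 5.16 and 5.14 in pre-granulosa cells, a difference of 2.78 ± 0.28 (adjusted p = 0.00536). The other called members were Cdca3, at 2.62 ± 0.16, Cdc20, the activator of the anaphase-promoting complex, at 1.82 ± 0.18, and Bub1b, at 1.31 ± 0.14, the smallest difference among all 26 called. Ube2c, which passes ubiquitin to the same complex, had Sertoli arrays far apart, at 7.61 and 9.52, and was not called (2.70 ± 0.61, adjusted p = 0.0641).

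Pttg1 and Bub3 stood apart from the rest of the role. Pttg1, or securin, the inhibitor of the protease that cuts cohesin, read 10.01 and 11.04 in Sertoli cells, against 10.49 and 10.59 in pre-granulosa cells, with 11.26 and 11.11 in testes, against 11.12 and 10.94 in ovaries. The pre-granulosa arrays lay between the Sertoli arrays, and the difference was -0.01 ± 0.33 (adjusted p = 0.994); it turned to 0.50 without Sertoli replicate 1. The other 2 Pttg1 probe sets were not called either, at 0.28 and -1.31. Bub3, a checkpoint protein that also serves in interphase, read 9.62 and 9.86 in Sertoli cells, against 9.00 and 9.74 in pre-granulosa cells, with a difference of 0.37 ± 0.26 (adjusted p = 0.527) and overlapping groups. Espl1, the protease that Pttg1 inhibits, differed by 1.75 ± 0.36 (adjusted p = 0.0501), and Mad2l1, a checkpoint protein, by 1.89 ± 0.37 (adjusted p = 0.041).

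Kinetochore and centromere genes had the highest share of calls, 6 of 7, with a median of 2.59. Nuf2 and Spc25 belong to the Ndc80 complex, which ties kinetochores to microtubules. Nuf2 read 8.50 and 8.89 in Sertoli cells, against 5.26 and 4.32 in pre-granulosa cells, a difference of 3.90 ± 0.32 (adjusted p = 0.00283), with 1 pre-granulosa array below background. Spc25 read 9.86 and 10.31 in Sertoli cells, against 5.65 and 6.83 in pre-granulosa cells, a difference of 3.85 ± 0.39 (adjusted p = 0.00513), and Ndc80 itself differed by 2.59 ± 0.30 (adjusted p = 0.00756). Cenpa, the histone H3 variant that marks centromeres, read 8.54 and 8.58 in Sertoli cells, against 5.24 and 6.08 in pre-granulosa cells, a difference of 2.91 ± 0.28 (adjusted p = 0.00455). For each of these genes both Sertoli arrays stood well above the higher pre-granulosa array. Cenpe, a kinesin of kinetochores, read 7.66 and 8.05 in Sertoli cells, against 5.39 and 5.44 in pre-granulosa cells, a difference of 2.44 ± 0.17 (adjusted p = 0.0019), and Cenpf was called at 2.56 ± 0.25. The member not called was Cenph, of the constitutive centromere network, which read 8.29 and 7.62 in Sertoli cells, against 5.68 and 7.29 in pre-granulosa cells, a difference of 1.47 ± 0.51 (adjusted p = 0.19); its second pre-granulosa array was close to the lower Sertoli array.

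Spindle motors and microtubule binders had 4 of 9 genes called and a median of 2.50. Hmmr, a protein of spindle poles, read 9.56 and 9.92 in Sertoli cells, against 4.10 and 5.45 in pre-granulosa cells, with 9.79 and 9.74 in testes, against 9.56 and 9.13 in ovaries. Its pre-granulosa arrays were far below the other 6, 1 of them below background, and their mean, 4.77, was at the background level. The measured difference was 4.97 ± 0.43 (adjusted p = 0.00337). None of the other Hmmr probe sets was called, and their differences were smaller, at 2.22, 2.22, 0.19 and 0.002. Nusap1, which bundles spindle microtubules, read 11.02 and 10.98 in Sertoli cells, against 5.44 and 7.28 in pre-granulosa cells, a difference of 4.64 ± 0.54 (adjusted p = 0.00783). Dlgap5, which stabilises spindle fibres near chromosomes, read 7.14 and 7.27 in Sertoli cells, against 5.27 and 5.31 in pre-granulosa cells, a smaller difference of 1.91 ± 0.13 with tight replicates (adjusted p = 0.00182). Kif22, a kinesin on chromosome arms, was also called, at 1.85 ± 0.21 (adjusted p = 0.00692), from 10.49 and 10.66 in Sertoli cells, against 8.98 and 8.46 in pre-granulosa cells. Tpx2, which activates the kinase Aurka on the spindle, read 11.04 and 11.21 in Sertoli cells, against 4.35 and 9.02 in pre-granulosa cells; its pre-granulosa arrays were further apart than those of any other member, and it was not called (adjusted p = 0.135). A second Tpx2 probe set read 9.90 and 9.54 in Sertoli cells, against 5.17 and 5.97 in pre-granulosa cells (4.15 ± 0.30, adjusted p = 0.00191), which was called. Kif11, the motor that separates spindle poles, read 6.80 and 7.67 in Sertoli cells, against 4.97 and 6.25 in pre-granulosa cells, a difference of 1.63 ± 0.49 (adjusted p = 0.136). Kif2c and Kif18a, which shorten microtubules, were at or below background on both pre-granulosa arrays. On their brightest probe sets they were at least 8.55-fold and at least 3.1-fold higher in Sertoli cells, neither called (adjusted p = 0.0129 and 0.0219). The other Kif2c probe sets differed by only 0.03, 0.70 and 0.08, and those at 0.03 and 0.70 read above background on every array. The other Kif18a probe set, below background on every array, differed by 0.05.

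Cytokinesis genes had 2 of 8 called and a median difference of 3.12. Cep55, which recruits the machinery of the last cut between daughter cells, read 7.67 and 9.59 in Sertoli cells, against 3.52 and 4.02 in pre-granulosa cells, with 11.25 and 11.10 in testes, against 10.49 and 10.58 in ovaries. Both pre-granulosa arrays were below background, and on this probe set Cep55 was at least 14.4-fold higher in Sertoli cells (adjusted p = 0.00842). Its other probe set read 5.88 and 7.21 in Sertoli cells, against 5.19 and 4.47 in pre-granulosa cells. That difference, 1.72 ± 0.45, was smaller and was not called (adjusted p = 0.0948). Racgap1, of the complex that builds the central spindle, read 9.21 and 8.81 in Sertoli cells, against 6.37 and 5.21 in pre-granulosa cells, a difference of 3.22 ± 0.37 (adjusted p = 0.00766). Kif23, its partner in that complex, differed by 2.23 ± 0.32 (adjusted p = 0.0147). The bundling protein Prc1 (3.72 ± 0.57, adjusted p = 0.0193) and the exchange factor Ect2 (4.01 ± 1.17, adjusted p = 0.124) had large differences and wide spread: Ect2 read 4.39 and 8.45 in pre-granulosa cells, against which both Sertoli arrays, at 10.27 and 10.60, were higher. Kif20b, a kinesin, differed by 3.02 ± 0.46 (adjusted p = 0.019). The smallest differences were those of Kif20a, a kinesin of the central spindle, and Anln, a scaffold of the contractile ring. Kif20a read 7.76 and 6.97 in Sertoli cells, against 5.83 and 6.50 in pre-granulosa cells, a difference of 1.20 ± 0.33 (adjusted p = 0.105). Anln read 5.66 and 6.77 in Sertoli cells, against 4.25 and 4.25 in pre-granulosa cells, at least 2.7-fold higher in Sertoli cells and not called (adjusted p = 0.0364). Its other probe set differed by 0.80 ± 0.32 (adjusted p = 0.247).

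Chromosome structure genes had 2 of 7 called and a median of 2.92. Top2a, the enzyme that untangles sister chromatids, read 9.95 and 10.15 in Sertoli cells, against 6.74 and 7.40 in pre-granulosa cells, a difference of 2.98 ± 0.23 (adjusted p = 0.00237). Ncapd2, of condensin I, the complex that compacts mitotic chromosomes, read 8.58 and 7.91 in Sertoli cells, against 5.75 and 5.67 in pre-granulosa cells, a difference of 2.54 ± 0.25 (adjusted p = 0.00462). Ncapg (3.22 ± 0.49, adjusted p = 0.0189) and Ncaph (2.92 ± 0.47, adjusted p = 0.0223), of the same complex, were not called, and a second Ncaph probe set was, at 3.10 ± 0.19. Mki67, a protein that coats mitotic chromosomes and is used as a stain for dividing cells, read 11.70 and 12.16 in Sertoli cells, against 7.33 and 9.05 in pre-granulosa cells, 3.73 ± 0.53 apart and short of a call (adjusted p = 0.0148). The SMC subunits, which both condensin I and condensin II contain, had the smallest differences of the role. Smc2 read 8.47 and 8.23 in Sertoli cells, against 8.03 and 7.28 in pre-granulosa cells, a difference of 0.70 ± 0.36 (adjusted p = 0.375). Smc4 read 9.47 and 9.58 in Sertoli cells, against 8.94 and 8.78 in pre-granulosa cells, a difference of 0.66 ± 0.15 (adjusted p = 0.0582), while a second Smc4 probe set was called, at 1.89 ± 0.17.

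**Figure D2:**
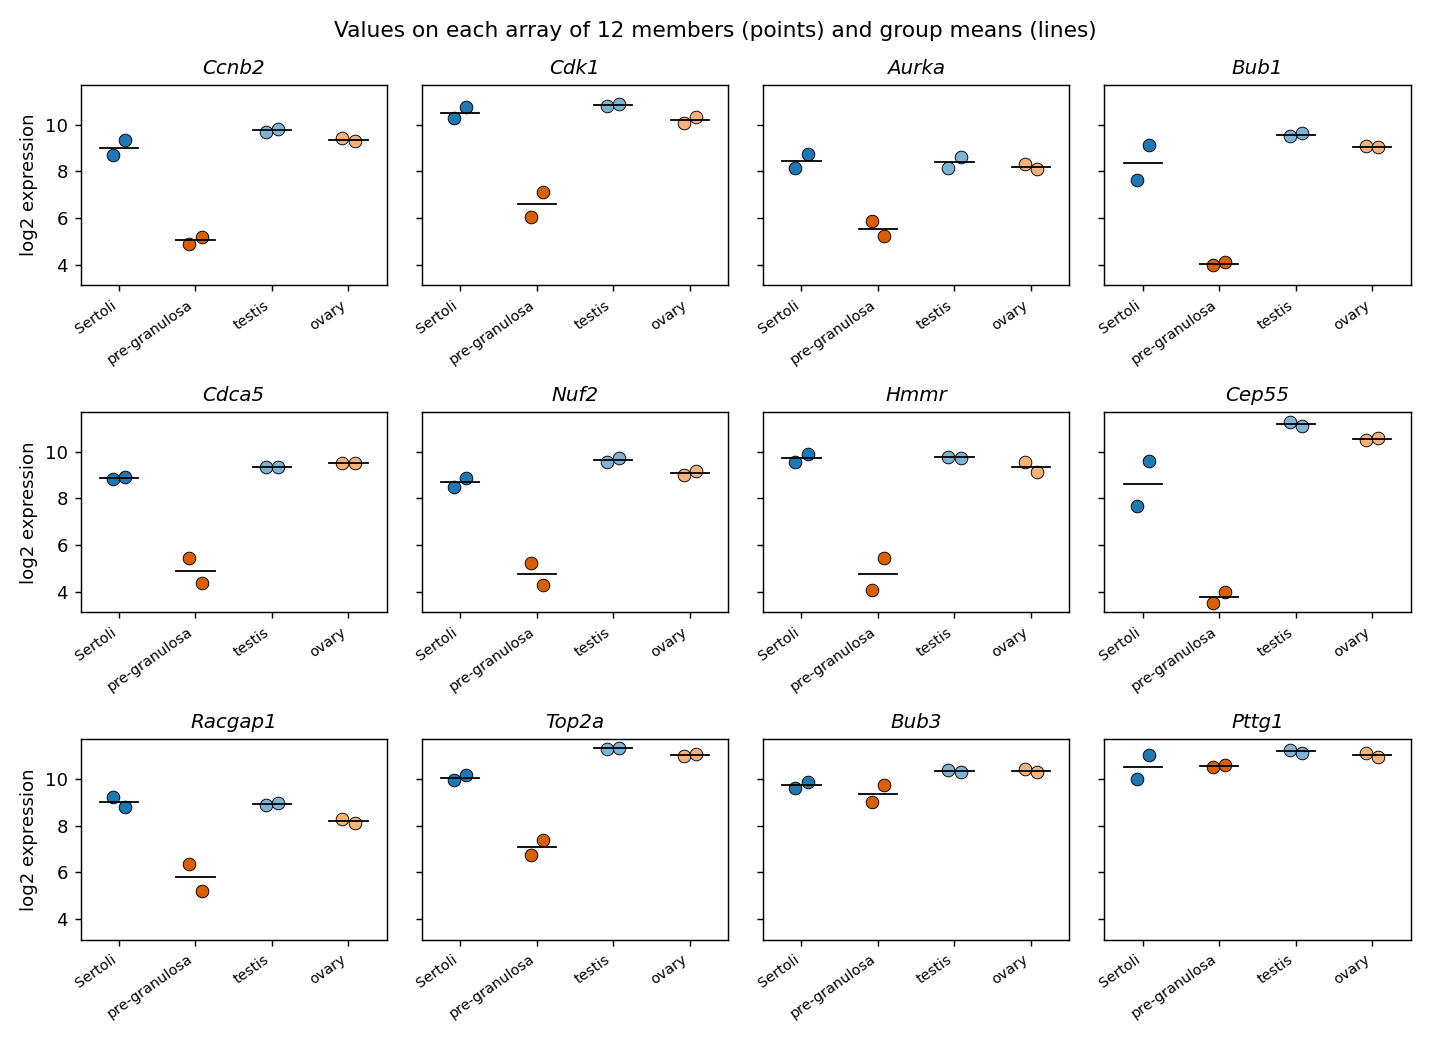
Log2 expression of 12 members on each array (points) with the mean of the 2 arrays of a group (lines). In 10 panels both pre-granulosa points lie below all other points; in the Bub3 panel they overlap the Sertoli points, and in the Pttg1 panel, at 10.49 and 10.59, they lie between the Sertoli points at 10.01 and 11.04.

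Over all 132 probe sets of the members, 39 were called higher in Sertoli cells and 0 lower, where 0.999% of all probe sets were called higher. Of the 76 probe sets that were not the brightest of their gene, 13 were called, with a median difference of 0.57. At least 1 probe set was called higher for 32 of 56 members, against 1.92% of all genes. The added members were Cdc25c, Cdca8, Incenp, Ncaph, Smc4 and Tpx2. Some dim probe sets showed no difference for called genes: the lowest Cenpa probe set was at -0.08 and the lowest Racgap1 probe set at -0.06, and every array of both read below the background level. Probe sets above background on every array could differ little too, as 1 of Bub1b (0.16), 1 of Spc25 (0.09) and 1 of Top2a (0.45) did. For Kif20b, a member not called, 1 such probe set was at -1.05. The difference was positive for 66 of the 76.

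In whole gonads the XY minus XX differences of the members were small. None of the 56 members was called in testis minus ovary (limma), where 0.236% of all genes were called higher and 0.115% lower; 4 members had an unadjusted p under 0.05, against 11.5% of all genes, and the lowest adjusted p was 0.135, that of Aurkb. In the main fit the spread is shared with the sorted arrays. Those varied more between replicates (SD 0.43 in Sertoli and 0.53 in pre-granulosa cells) than testes (0.20) and ovaries (0.30). With the 4 gonad arrays alone, 25 of 56 members had an unadjusted p under 0.05 (limma), and the lowest adjusted p was 0.0473. With a weight per group these were 15 and 0.024. The shares of all genes at that unadjusted p in these fits are not given here. No alternative setting called a member. The median difference was 0.34, a fold of 1.27, beside -0.04 for all genes, and it was positive for 45 of 56 members, against 44.2% of all genes. Both testis arrays lay above both ovary arrays for 37 members, against 24.4% of all genes, and below them for 3, against 30.7%. The array means of the 56 genes were 9.74 and 9.78 in testes and 9.42 and 9.44 in ovaries. Aurkb read 8.57 and 8.83 in testes, against 7.81 and 7.62 in ovaries, a difference of 0.98 ± 0.20, and Ube2c had the largest difference, 1.05 ± 0.61. By the brightest probe set, Incenp, Cdca5 and Kif11 were the 3 members whose testis arrays both lay below both ovary arrays. Kif11 read 7.73 and 8.16 in testes, against 8.36 and 8.78 in ovaries, a difference of -0.62 ± 0.49 (adjusted p = 0.847).

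The test of whether the XY minus XX difference was the same in sorted cells and in gonads called 0 members (limma, adjusted p under 0.01), as it called 0% of all genes. Its median over the members was 2.33, positive for 55 of 56 against 58.3% of all genes, and 45 members had an unadjusted p under 0.05, against 13% of all genes. The lowest adjusted p was 0.0376, for Ccnb2, whose difference was 3.58 ± 0.34 larger in sorted cells. At an adjusted p under 0.05, a looser threshold, 5 members were called, Ccnb2, Dlgap5, Cenpe, Cdca5 and Cdca3, where 0.203% of all genes were called in that direction.

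**Figure D3:**
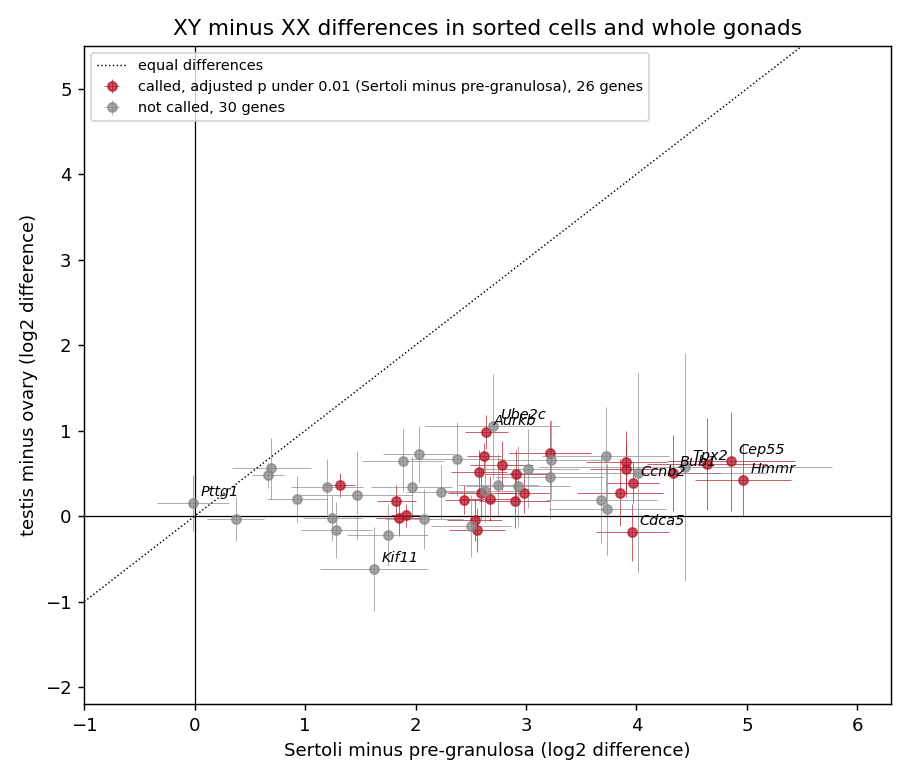
Testis minus ovary difference against Sertoli minus pre-granulosa difference of the 56 members, in log2 units, with SE bars; red points are the 26 called in sorted cells and the dotted line marks equal differences. All points but Pttg1 lie below the line; they spread from -0.01 (Pttg1) to 4.97 (Hmmr) along the horizontal axis, but only from -0.62 (Kif11) to 1.05 (Ube2c) along the vertical one.

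Set against the whole organs, the pre-granulosa arrays were the ones that stood out. After the median of all genes was taken off, the members differed between Sertoli cells and testis by a median of -0.46, from -2.26 (Cep55) to 0.81 (Melk), with 15 of 56 higher in Sertoli cells. Between pre-granulosa cells and ovary the median was -2.61, from -6.37 (Cep55) to -0.10 (Pttg1), with 0 of 56 higher in pre-granulosa cells. Values at background understate the size of such a difference. By rank within an array, the median member stood at percentile 85.0 of all probe sets in Sertoli cells, 55.7 in pre-granulosa cells, 87.3 in testis and 84.2 in ovary. Both pre-granulosa arrays ranked below the other 6 arrays for 53 of 56 members, against 11.8% of all genes. Whole gonads hold germ cells, vessels and interstitial cells as well as supporting cells, and the part of these cells in the values was not tested.

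Most members followed a common pattern across the arrays. After the mean of the sorted and of the gonad arrays was taken off, the correlation of a member with the mean of the other members over the 8 arrays had a median of 0.95, and it was over 0.9 for 41 of 56. The lowest were Pttg1 at 0.08, Smc2 at 0.55 and Bub3 at 0.64. These are descriptions over 8 arrays of 4 groups, which share the gap between the 2 sorted groups. Among the 8 genes outside the list with the highest correlation with the mean of the members were Kpna2, an importin that carries proteins into the nucleus, at 1.00, Cenpk, a kinetochore protein, at 0.99, and Spint2, an inhibitor of serine proteases, at 0.99. The others were Ndufa12, Brca1, Shc4, Atp6v0e and Tmc7. Ndufa12 and Atp6v0e differed by only 0.53 and 0.59 between Sertoli and pre-granulosa cells and were not called. Kpna2 read 10.19 and 10.52 in Sertoli cells, against 6.96 and 7.43 in pre-granulosa cells, with 11.15 and 11.28 in testes and 10.83 and 10.79 in ovaries.

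Other lists of cell cycle genes were set beside the members. Over all genes, 1.62% were called higher in Sertoli cells and 1.05% lower, and the median difference was 0.04. Of 62 other G2 and M genes measured, 11 were called higher in Sertoli cells and 0 lower, with a median difference of 1.24; among them were Aspm, a spindle pole protein (3.81 ± 0.39, adjusted p = 0.00532), and Pbk, a mitotic kinase (2.91 ± 0.17, adjusted p = 0.00128). Zw10, of a complex that brings dynein to kinetochores, had the smallest difference (0.01 ± 0.28). Of 37 S phase and replication genes, 4 were called higher and 0 lower, with a median of 1.29; Gins1, a subunit of the replicative helicase, differed by 1.93 ± 0.23 (adjusted p = 0.00807) and Gmnn, which blocks a new round of licensing, by 1.82 ± 0.21 (adjusted p = 0.0072), while the clamp loader subunit Rfc3 differed by 0.02 ± 0.15. S phase genes had array medians of 9.22 and 9.47 in Sertoli cells, against 8.12 and 7.93 in pre-granulosa cells. Leaving out 1 array moved these counts. With any 1 Sertoli, testis or ovary array left out, the G2 and M calls fell and the S phase calls were lost. Both rose without pre-granulosa replicate 2. The count over all genes fell and rose in the same settings. Of 21 genes of cell cycle exit and D cyclins, 0 were called in either direction (limma; 11 at an unadjusted p under 0.05, 4 of them higher and 7 lower in Sertoli cells, where 22.4% of all genes had such a p), and differences ran from -1.57 to 1.59 with a median of -0.02; with pre-granulosa replicate 1 left out 2 were called, and with replicate 2 left out 1. Ccnd3, a D cyclin, had the smallest difference (-0.02 ± 0.28). Cdkn1b, the CDK inhibitor p27, read 11.29 and 10.72 in Sertoli cells, against 12.13 and 13.02 in pre-granulosa cells, lower in Sertoli cells on both arrays but not called (-1.57 ± 0.33, adjusted p = 0.051).

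**Figure D4:**
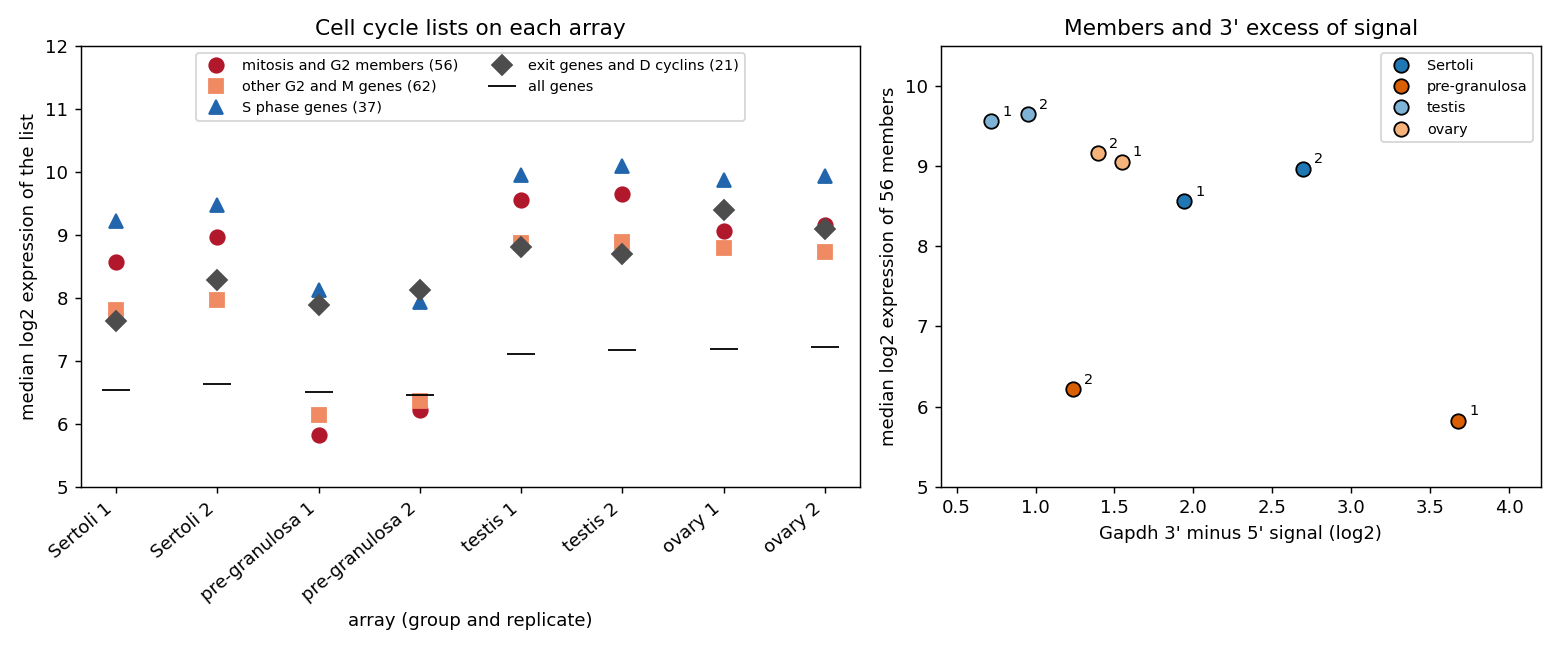
Left, median log2 expression of 4 cell cycle lists and of all genes on each array; right, median of the 56 members against the 3′ minus 5′ signal of Gapdh on each array. The G2 and M lists fall below the median of all genes on the pre-granulosa arrays, where the members' medians are 5.82 and 6.21, while the exit genes do not; the 2 pre-granulosa arrays lie at 3.68 and 1.24 on the horizontal axis of the right panel and are both low on its vertical axis.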

How the data were processed

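Gene expression was measured on 8 Affymetrix Mouse Genome 430v2.0 arrays, 4 groups of 2, grouped by the sample titles. The authors deposited 1 log2 value per probe set and array; RMA is named in the submitters' processing notes, and per the labels differences were called by the authors with R/maanova at a false discovery rate of 1%. From these log2 values, 64 array control probe sets were left out, and limma 3.58.1 (R 4.3.3) was fitted to 45037 probe sets with 1 mean per group, eBayes and Benjamini-Hochberg adjustment; the call is an adjusted p under 0.01, two-sided. With 2 arrays a group, all 8 arrays shared 1 estimate of the spread, with 4 residual degrees of freedom. The fit was tested on simulated data.

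A gene is read by the brightest of its probe sets (by mean value on the 8 arrays), among 34945 probe sets with 1 gene symbol; 932 probe sets with several symbols and 9160 with none were not assigned to a gene. Symbols came from the platform annotation. The sorted arrays share 1 distribution of values and the gonad arrays another, so levels across them were not tested. Samples with the same replicate number deviated little together from their group means, so no block was used. The r was 0.009 for Sertoli and pre-granulosa cells and 0.015 for testis and ovary. Over all pairs of groups it ran from -0.156 (pre-granulosa cells and testis) to 0.049 (Sertoli cells and ovary).

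Values on every array are given, in each of 7 roles, for the 3 called members with the largest difference and the 2 with the smallest difference, and for a few others named after their values were seen. The members and the lists were chosen with earlier results of these data known. Alternatives covered moderation, weights, scaling, the threshold, the probe set that stands for a gene and leaving out each array. Promoters are from RefSeq (GRCm38.p6).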

Additional observations from a re-analysis of the deposited data

Results flagged for a closer look

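For 3 members, read by their brightest probe set, the XY minus XX difference pointed one way on every sorted array and the other way on every gonad array. Cdca5 was higher in Sertoli than in pre-granulosa cells on both arrays and lower in testis than in ovary on both arrays; the difference of the 2 comparisons was 4.15, with an adjusted p of 0.048 in limma, short of the threshold of 0.01. The same pattern held for Kif11, where it was 2.25 (limma, adjusted p = 0.293), and for Incenp, where it was 1.45 (limma, adjusted p = 0.304). The gonad parts were small, at -0.19 ± 0.33 for Cdca5, -0.62 ± 0.49 for Kif11 and -0.16 ± 0.32 for Incenp (SE). Other probe sets of these genes did not all share the gonad direction. A second Cdca5 probe set read 7.59 on both testis arrays, against 7.31 and 7.33 in ovaries. Testis minus ovary ran from -0.25 to 0.55 over the other Incenp probe sets. It was 0.14 and -0.42 on the other Kif11 probe sets.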

How the results depend on the processing

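In brackets is the share of all genes called higher in Sertoli cells, for each setting but those with 1 array left out. In those settings the share moved too: it fell where the members' calls fell and rose where they rose. The 26 members called higher in Sertoli cells (1.62%) became 25 with an intensity trend, 24 of them among the 26 (1.42%). They were 26 or 27 under the quantile and median scalings (1.59% to 1.67%) and 31 without dim probe sets (2.57%). They became 0 without moderation of the spread (0.022%), 14 with a weight per group (0.599%) and 0 with the 4 sorted arrays alone (0%). With the replicate number as a block they were 10, all among the 26 (0.709%). At an adjusted p of 0.05 they were 42 (4.32%), and at 0.001 they were 0 (0.066%). They were 36 with the mean of all probe sets of a gene (2.44%) and 12 with the probe set of lowest mean (0.907%). Leaving out 1 array gave 2 to 32 calls. The difference of the comparisons had 5 calls at 0.05 and 0 under the other settings in which it was fitted (it cannot be had from the 4 sorted arrays alone), and testis minus ovary had 0 under all. In the order without moderation, weight per group, 4 arrays alone, replicate block, 0.05, 0.001, mean and lowest probe set, other G2 and M genes called were 0, 4, 0, 6, 31, 0, 20 and 5 (11 as reported; 0 to 17 with 1 array left out), and S phase genes 0, 0, 0, 0, 12, 0, 9 and 2 (4 as reported; 2 with an intensity trend; 0 to 10 with 1 array left out). Exit genes called were 1 at 0.05, 2 with the mean, 1 with the lowest probe set and 0 to 2 with 1 array left out. The Pttg1 difference turned to 0.0175 with median centring and ranged from -0.531 to 0.501 with 1 array left out, positive without Sertoli replicate 1 or pre-granulosa replicate 2; Cenpa turned to -0.0801 and Racgap1 to -0.0571 with the probe set of lowest mean, which lay below background. The fits with fewer arrays have fewer degrees of freedom; for the other changes the cause was not tested. Signal over background limits 12 members, 5 at background on both pre-granulosa arrays and 7 on 1.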
